A study of Mus musculus with 8 samples.

Results

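The genes described here are 38 mouse genes of antioxidant defence: the glutathione and thioredoxin peroxidases, the enzymes that make and recycle their reducing partners, superoxide dismutases and catalase, and the NRF2 regulators with their stress-response targets. They were chosen by name as a functional list and found by gene symbol in the deposited table of 47729 genes, where all 38 were present. Of these, 36 passed the filter on low counts and were tested. Gpx7 and Gpx8, 2 peroxidases of the endoplasmic reticulum, did not pass, with 26 and 9 reads summed over 8 libraries.

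The study compared bone marrow cells of C57BL/6 mice with a disease like chronic myeloid leukaemia that carried either an shRNA against Fubp1 or a scrambled shRNA. In both groups the donor marrow came from mice given 5-fluorouracil and had been transduced with a retrovirus for BCR-ABL1 and red fluorescent protein, together with a pLKO.1-Venus lentivirus for the shRNA. Both groups were grown in recipients irradiated with 900 cGy. Each library was made from total RNA of 1 mouse, from live cells that were positive for both reporters and negative for lineage markers, with 4 mice per group. Both groups therefore expressed BCR-ABL1, and the control was the scrambled shRNA, not an untransduced cell. A single Fubp1 shRNA group was compared, with no shRNA sequence or age of the mice given in the labels. The labels name 2 ribosomal RNA depletion kits without saying which library was made with which.

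Cells make superoxide and hydrogen peroxide in respiration and through NADPH oxidases. Superoxide dismutases turn superoxide into peroxide, which catalase, the glutathione peroxidases and the peroxiredoxins remove. Glutathione peroxidases are recharged by glutathione and glutathione reductase, and peroxiredoxins by thioredoxin and thioredoxin reductase, both at the expense of NADPH. Many of these genes are induced by the transcription factor NRF2, which KEAP1 holds at a low level until oxidants or electrophiles modify it. BCR-ABL1 is known to raise reactive oxygen species in blood cells, and red cell precursors carry much peroxiredoxin 2, catalase and glutathione peroxidase 1.

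The libraries held 22465303 to 44761356 counts. Levels are given as CPM, read counts relative to library size, always in the order of replicates 1 to 4. Fubp1, the targeted gene, stood at 296, 284, 291 and 396 CPM with the scrambled shRNA and at 281, 228, 220 and 239 CPM with the knockdown. No knockdown library reached the lowest scrambled one, and their mean was 76.4% of that of the scrambled group. The log2 fold change of -0.39 (SE 0.12) missed the threshold in edgeR's quasi-likelihood test (adjusted p = 0.0604). Fubp1 was called with DESeq2 and in edgeR with no low count filter, and in 0 of 8 edgeR fits with a library left out (adjusted p 0.0145 to 0.136 over all settings). Knockdown replicate 3 stood apart: on the first principal component, with 61.1% of the variance, it lay at -29.0, among the scrambled libraries at -57.3 to -13.7, while the other 3 knockdown libraries lay at 34.1 to 81.2. The summed level of early granulocyte genes divided the libraries in the same way, at 36.7, 167, 337 and 85.8 CPM in the scrambled and 1995, 959, 88.5 and 3649 CPM in the knockdown libraries. Its most abundant gene, Mpo, ran from 21.1 to 196 CPM in the scrambled and from 53.4 to 2169 CPM in the knockdown libraries. None of its 8 tested genes passed the threshold. All 8 had an unadjusted p under 0.05 by edgeR, as had 4508 of all 13462 tested genes. Erythroid genes were the most abundant lineage genes in both groups, at 9771 to 10802 CPM summed in the scrambled and 7806 to 12367 CPM in the knockdown libraries. These sums overlapped, but of 15 tested erythroid genes 3 were higher (Hbb-bs, Hbb-bt and Alas2) and 5 lower (Klf1, Gata1, Epor, Car2 and Ermap) in the knockdown. Summed megakaryocyte genes ran from 68.9 to 87.0 and from 132 to 215 CPM, monocyte and macrophage genes from 4.33 to 10 and from 8.63 to 70.7 CPM, and mature neutrophil genes from 1.84 to 8.31 and from 1.05 to 43.5 CPM. Of 6 tested megakaryocyte genes edgeR called 2 higher, Itga2b (means of 41.0 and 127 CPM, adjusted p = 0.00282) and Gp1ba (adjusted p = 0.0225). Pf4, Gp1bb, Gp9 and Vwf were not called. Of 5 tested monocyte and macrophage genes and 4 tested mature neutrophil genes 0 were called. Summed T and NK cell genes ran from 3.30 to 9.53 and from 4.89 to 98.9 CPM, of which Nkg7 alone reached 86.6 CPM in knockdown replicate 4, and Lck ran from 1.43 to 2.70 and from 2.86 to 12.2 CPM. Summed eosinophil genes ran from 0.389 to 4.83 and from 0.666 to 35.5 CPM, mast cell and basophil genes from 253 to 385 and from 156 to 287 CPM, and B cell genes from 0.225 to 1.09 and from 0.539 to 4.07 CPM. Kit and Gata2 made up most of the mast cell and basophil sum. Their means were 143 and 153 CPM in the scrambled and 78.7 and 116 CPM in the knockdown group. All other genes of that list had a higher mean with the knockdown (Mcpt8, 1.73 and 9.41 CPM). Of the tested genes of these 4 lists 0 were called by edgeR, with 3 at an unadjusted p under 0.05. The defining markers Cd3e and Cd2 of T cells and Ms4a1 of B cells were at 0 counts in every library. The part of all these lineages in the results below was not tested, and in these bulk libraries fewer cells of a type and less RNA per cell cannot be told apart.

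Antioxidant genes changed in both directions, also within the peroxiredoxin group and the thioredoxin system. With the knockdown, 5 of the 36 tested genes rose (Prdx1, Srxn1, Txnrd1, Gsr and Gstm1) and 4 fell (Gpx3, Prdx3, Sod1 and Txn2), by edgeR's quasi-likelihood test at an adjusted p under 0.05. The 9 called genes are 25.0% of those tested, beside 15.3% of all 13462 tested genes, with 8.02% of all genes higher and 7.29% lower. Where the mean level was 10 CPM or more, 8 of 34 antioxidant genes were called (23.5%), beside 17.2% of all such genes. The median log2 fold change of the 36 was -0.02, beside 0.00 over all tested genes, and the median size of the change was 0.16 beside 0.20. The fitted change was above 0 in 17 genes and below 0 in 19.

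**Figure D1:**
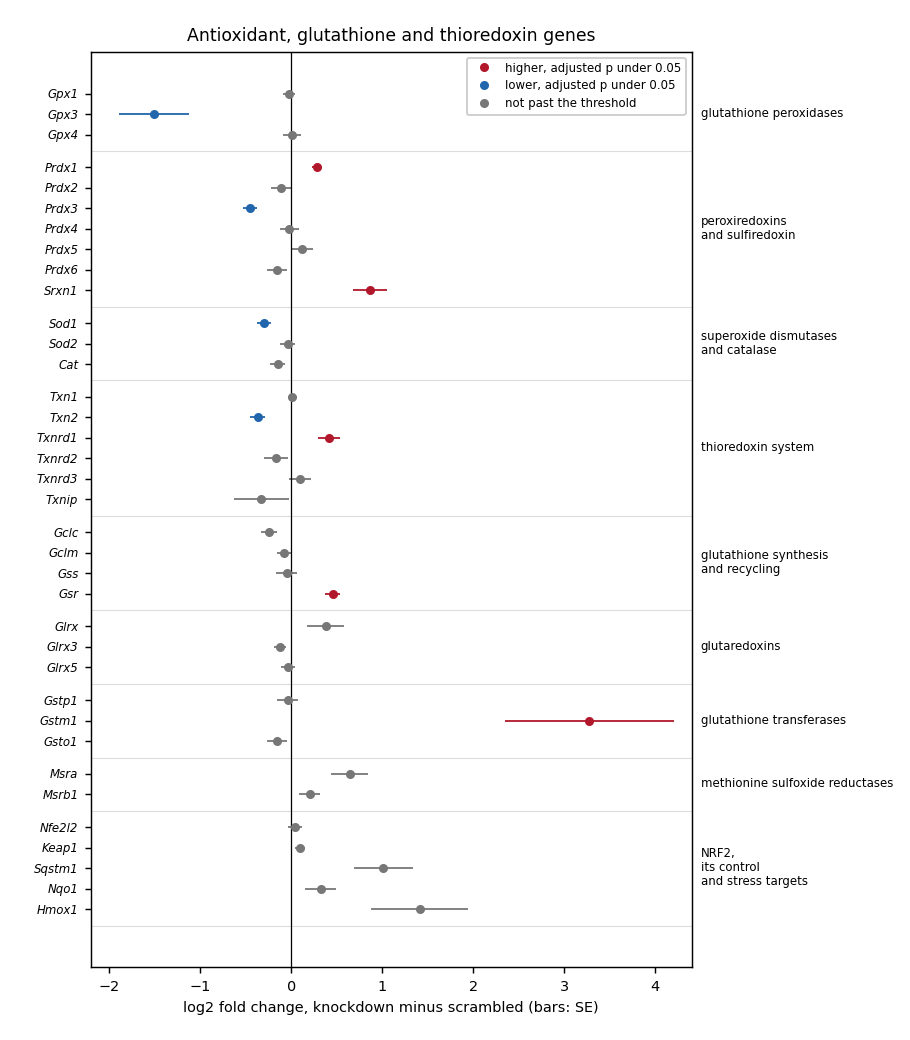
Log2 fold change (knockdown minus scrambled, x axis) of the 36 tested genes, grouped by role on the y axis; points are edgeR estimates, bars are SE, red and blue mark genes past the threshold. Gstm1 lies farthest to the right at 3.27 with a wide error, Gpx3 farthest to the left at -1.51, and most other genes lie within 0.5 of 0.

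The 2 groups of libraries were fully separate in 9 genes, 25.0% of those tested beside 20.7% of all tested genes. These were Prdx1, Srxn1, Gsr, Msra and Keap1, all higher, and Gpx3, Prdx3, Sod1 and Txn2, all lower. Leaving out knockdown replicate 3, the library among the scrambled ones, gave 5 higher and 7 lower (33.3% of those tested, beside 24.7% of all genes). Txnrd1 was then no longer called (adjusted p = 0.0502), while Msra was called higher and Prdx2, Gclc and Txnrd2 were called lower. Prdx3 and Gsr stayed past the threshold whichever of the 8 libraries was left out; the other 7 called genes lost it without at least 1.

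The binding motif of NRF2 with its small MAF partners was looked for at the start sites, since several of the genes above are textbook NRF2 targets. The search was for TGACNNNGC on either strand in the RefSeq windows of GRCm38.p6, from 250 bases before to 50 after each annotated start. Of the 38 genes, 33 had a window, and 6 of these held the motif (18.2%), beside 14% of 27025 genes. They were Prdx1, Srxn1 and Txnrd1, which rose, Sod1, which fell, and Gclm and Nfe2l2, which were not called. Gclc, Gsr, Hmox1, Msra and Prdx6 had no window and were not searched. Of the 8 called genes with a window 4 held it, and the share among all called genes was not counted. The stretches around the match are printed on the gene's strand, with the motif in capitals, which reads as its reverse complement except in Nfe2l2, so that the matches in genes that rose can be set beside the others.
Prdx1: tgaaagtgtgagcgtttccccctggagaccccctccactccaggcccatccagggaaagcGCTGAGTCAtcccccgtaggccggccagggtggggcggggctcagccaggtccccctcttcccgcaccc
Txnrd1: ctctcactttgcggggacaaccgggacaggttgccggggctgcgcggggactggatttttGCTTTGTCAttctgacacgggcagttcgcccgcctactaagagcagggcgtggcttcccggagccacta
Srxn1: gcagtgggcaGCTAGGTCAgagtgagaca
Sod1: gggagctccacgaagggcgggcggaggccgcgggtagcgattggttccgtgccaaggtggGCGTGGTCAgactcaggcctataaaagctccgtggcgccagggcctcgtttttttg
Gclm: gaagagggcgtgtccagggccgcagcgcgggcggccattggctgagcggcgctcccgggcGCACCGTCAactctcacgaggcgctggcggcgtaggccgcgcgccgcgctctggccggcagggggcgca
Nfe2l2: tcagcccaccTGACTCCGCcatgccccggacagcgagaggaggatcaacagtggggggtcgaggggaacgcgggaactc
The Prdx1 stretch is chr4:116685406-116685534 on the plus strand, with the motif 133 to 125 bases before the start. The Txnrd1 stretch, from 1 of its 3 windows, is chr10:82859054-82859182 on the plus strand, with the motif 92 to 84 bases before the start. The Srxn1 stretch is chr2:152105542-152105570 on the plus strand, and its motif lies 29 to 37 bases after the start. The Sod1 stretch is chr16:90220646-90220761 (plus), the Gclm stretch chr3:122245363-122245491 (plus) and the Nfe2l2 stretch chr2:75704835-75704913 (minus). A match is a run of letters and no evidence of binding, and genes that changed in either direction and genes that did not pass the test held it.

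Peroxiredoxins were split by enzyme: of 7 tested genes with sulfiredoxin, Prdx1 and Srxn1 rose and Prdx3 fell. Prdx1 encodes the main cytosolic peroxiredoxin (ENSMUSG00000028691, GRCm38 chromosome 4 from 116685544 to 116700822, plus strand). It measured 137, 138, 139 and 142 CPM in the scrambled and 180, 158, 171 and 169 CPM in the knockdown libraries. The scrambled mice were nearly level and every knockdown mouse lay above them, knockdown replicate 3 included. Its mean rose by 0.28 log2 units (SE 0.05, adjusted p = 0.0127), at 139 ± 1.93 CPM in the scrambled and 169 ± 9.08 CPM in the knockdown group (SD, n = 4 per group). The call ended without scrambled replicate 2 (adjusted p = 0.0534; 3.33e-05 to 0.0727 over all settings).

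Srxn1 encodes sulfiredoxin, which restores peroxiredoxins that peroxide has overoxidised (chromosome 2 from 152105516 to 152111376, plus strand). It measured 37.1, 22.4, 23.9 and 32.1 CPM in the scrambled and 56.7, 48.6, 63.2 and 41.5 CPM in the knockdown libraries. Both groups were spread, but they did not overlap, and knockdown replicate 3 was the highest of all. The gene rose to 182% of the scrambled level (log2 fold change 0.86, SE 0.19, adjusted p = 0.0225). It lost the call without scrambled replicate 2 or 3 or knockdown replicate 1 (adjusted p up to 0.0668). The other gene of this set that changed, Prdx3, moved the other way.

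Prdx3 encodes the peroxiredoxin of the mitochondrial matrix (chromosome 19 from 60864051 to 60874556, minus strand). It measured 425, 413, 403 and 436 CPM in the scrambled and 286, 299, 354 and 284 CPM in the knockdown libraries. Knockdown replicate 3 was the nearest to the scrambled mice but still below all of them. The gene fell to 72.9% of the scrambled level (log2 fold change -0.46, SE 0.08, adjusted p = 0.00987), with an adjusted p of at most 0.0324 with any 1 library left out. Without knockdown replicate 3 the log2 fold change was -0.54.

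The other 4 peroxiredoxin genes did not pass the test. Prdx2, the abundant form of red cells, measured 858 ± 69.8 CPM in the scrambled and 797 ± 128 CPM in the knockdown libraries (SD, n = 4 per group; log2 fold change -0.11, adjusted p = 0.540). Its highest value of all, 985 CPM, was that of knockdown replicate 3, and without that library it was called lower (-0.23, adjusted p = 0.0430). Prdx4, a form of the endoplasmic reticulum, had a log2 fold change of -0.02, Prdx5 of 0.12 and Prdx6 of -0.15, with adjusted p from 0.375 to 0.902.

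Among the glutathione peroxidases, which use glutathione to reduce peroxides, the intracellular forms were nearly level and the secreted form fell. Gpx3 (chromosome 11 from 54902453 to 54910377, plus strand) encodes the plasma enzyme and was a low transcript in these cells. It measured 8.33, 8.40, 6.16 and 11.5 CPM in the scrambled and 5.68, 2.41, 1.65 and 2.37 CPM in the knockdown libraries. The groups did not overlap, although knockdown replicate 1 came within 0.5 CPM of scrambled replicate 3. The gene fell to 35.3% of the scrambled level (log2 fold change -1.51, SE 0.38, adjusted p = 0.0333). It was no longer called without any 1 of the scrambled libraries or without knockdown replicate 2 or 4 (adjusted p up to 0.0854), and without knockdown replicate 1 the log2 fold change was -1.99.

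Gpx1, the abundant cytosolic form, measured 1184, 1242, 1117 and 1120 CPM in the scrambled and 1105, 1064, 1268 and 1142 CPM in the knockdown libraries. These ranges overlapped throughout, and the fitted log2 change was -0.03 (SE 0.07, adjusted p = 0.827). Gpx4, which reduces lipid peroxides in membranes and restrains ferroptosis, measured 67.4 ± 5.89 and 67.8 ± 8.91 CPM (SD, n = 4 per group; log2 fold change 0.01, adjusted p = 0.963). Gpx7 and Gpx8 did not exceed 0.201 and 0.135 CPM in any library.

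Of the enzymes that remove superoxide and peroxide directly, Sod1 fell. Sod1, the copper and zinc dismutase of the cytosol (chromosome 16 from 90220754 to 90226329, plus strand), measured 390, 412, 421 and 396 CPM in the scrambled and 316, 357, 360 and 284 CPM in the knockdown libraries. Every knockdown mouse lay below every scrambled one. Sod1 fell by 0.30 log2 units (SE 0.08, adjusted p = 0.0378), at 81.3% of the scrambled level. That small change kept its call only without knockdown replicate 2 or 3 among the 8 left-out libraries (adjusted p up to 0.102 without any 1 of the 6 others). Sod2, the manganese form of mitochondria, measured 152 ± 12.2 and 148 ± 11.7 CPM (SD, n = 4 per group; adjusted p = 0.763). Catalase transcript, Cat, measured 192 ± 19.4 and 173 ± 7.92 CPM, a log2 fold change of -0.15 that did not pass (adjusted p = 0.212), or of -0.24 that did without scrambled replicate 4, its lowest scrambled library (adjusted p = 0.0319).

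In the thioredoxin system, the reductase of the cytosol rose and the thioredoxin of mitochondria fell. Txn2 (chromosome 15 from 77915047 to 77929006, minus strand), the mitochondrial thioredoxin that recharges PRDX3, measured 323, 340, 304 and 357 CPM in the scrambled and 253, 274, 275 and 224 CPM in the knockdown libraries. No knockdown mouse reached the lowest scrambled one. Txn2 fell by 0.37 log2 units (SE 0.08, adjusted p = 0.0209), and the call ended without scrambled replicate 1 or 2 or knockdown replicate 1 (adjusted p up to 0.0668). Its reductase Txnrd2 measured 57.2 ± 6.09 and 51.0 ± 9.68 CPM (SD, n = 4 per group; log2 fold change -0.17, adjusted p = 0.424). Knockdown replicate 3 held its highest value, 65.2 CPM, and without that library the log2 fold change was -0.32 (adjusted p = 0.0499).

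Txnrd1 encodes the selenoprotein that reduces cytosolic thioredoxin (chromosome 10 from 82833951 to 82897712, plus strand). It measured 295, 259, 255 and 370 CPM in the scrambled and 416, 396, 398 and 363 CPM in the knockdown libraries. The groups overlapped, because scrambled replicate 4 lay above knockdown replicate 4. The gene rose by edgeR with all libraries (log2 fold change 0.42, SE 0.12, adjusted p = 0.0436). It kept that call without scrambled replicate 4 (0.53, adjusted p = 0.00948) and lost it without any 1 of the other 7 (adjusted p up to 0.115). Its substrate gene Txn1 was among the least variable of the set, at 271 ± 11.8 and 274 ± 8.80 CPM (SD, n = 4 per group; log2 fold change 0.01, adjusted p = 0.887). Txnrd3, a reductase known from testis, measured 19.9 ± 2.28 and 21.3 ± 2.91 CPM (adjusted p = 0.643). Txnip, the inhibitor of thioredoxin, was spread within the scrambled group, from 40.6 to 120 CPM, and measured 56.8 to 83.9 CPM in the knockdown libraries (log2 fold change -0.33, adjusted p = 0.497).

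**Figure D2:**
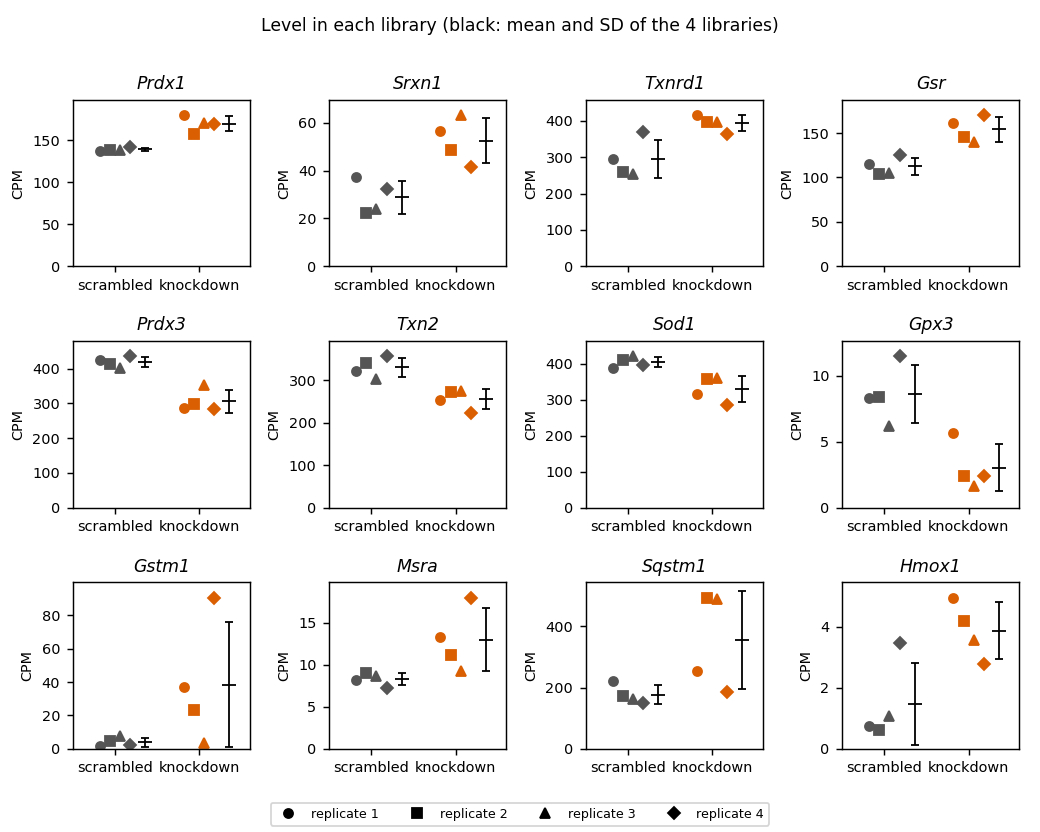
CPM in each library (y axis, from 0) for 12 genes, with scrambled libraries in grey and knockdown libraries in orange, marker shape for the replicate number, and black bars for the mean and SD of 4 libraries. Prdx1, Srxn1, Gsr, Prdx3, Txn2, Sod1, Gpx3 and Msra separate without overlap, whereas in Gstm1 knockdown replicate 3 sits at 3.40 CPM among the scrambled libraries.

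Of 4 genes for the synthesis and recycling of glutathione, Gsr rose and the 3 synthesis genes did not pass the test; the median log2 fold change was -0.06. Gsr encodes glutathione reductase (chromosome 8 from 33652523 to 33698163, plus strand), which uses NADPH to return oxidised glutathione to its reduced form. It measured 115, 104, 105 and 125 CPM in the scrambled and 162, 145, 140 and 170 CPM in the knockdown libraries. Every knockdown mouse exceeded every scrambled one, knockdown replicate 3 by the least. The gene rose to 137% of the scrambled level (log2 fold change 0.46, SE 0.09, adjusted p = 0.0133), with an adjusted p of at most 0.0497 with any 1 library left out. The knockdown mice stood in the order of their early granulocyte genes, whose part in the Gsr values was not tested.

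Gclc, the catalytic subunit of glutamate-cysteine ligase that limits glutathione synthesis, measured 261, 274, 266 and 252 CPM in the scrambled and 225, 200, 262 and 203 CPM in the knockdown libraries. Knockdown replicate 3 lay within the scrambled range and the other 3 knockdown libraries below it. With all libraries the log2 fold change was -0.24 (SE 0.09, adjusted p = 0.0889), and without knockdown replicate 3 it was -0.34 (adjusted p = 0.00857; 0.00857 to 0.175 over all settings). Gclm, the modifier subunit, measured 374 ± 22.8 and 355 ± 33.0 CPM, and Gss, the synthetase of the second step, 61.3 ± 7.03 and 59.2 ± 8.41 CPM (SD, n = 4 per group; adjusted p = 0.526 and 0.807). The 3 glutaredoxin genes, which remove glutathione from proteins or carry iron-sulfur clusters, did not pass either, with 0 at an unadjusted p under 0.05 and 0 called by DESeq2 or limma-voom. Glrx had a log2 fold change of 0.38 (adjusted p = 0.230), Glrx3 of -0.13 (adjusted p = 0.206) and the mitochondrial Glrx5 of -0.03 (adjusted p = 0.813).

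Of the glutathione transferases, which join glutathione to electrophiles, Gstm1 rose and the others did not pass. Gstm1 (chromosome 3 from 108012255 to 108017973, minus strand) measured 1.61, 4.46, 7.56 and 2.16 CPM in the scrambled and 37.1, 23.0, 3.40 and 90.7 CPM in the knockdown libraries. Knockdown replicate 3 lay among the scrambled mice, and the other 3 knockdown libraries lay above all of them. Gstm1 rose by 3.27 log2 units (SE 0.93, adjusted p = 0.0496). Over 7 of the 8 left-out libraries the call was lost (adjusted p up to 0.118), and without knockdown replicate 3 it held (3.63, adjusted p = 0.0105). With limma-voom or no low count filter it was lost too (adjusted p 0.00380 to 0.262 over all settings). Gstm1 ordered all 8 libraries as the summed early granulocyte genes did, the only one of the 36 to do so (2.78%, beside 0.624% of all tested genes). The transferase genes of the mu and pi classes have close relatives, so reads may have been split between them, which leaves their counts uncertain.

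Gstp1 measured 44.8 ± 6.15 and 43.6 ± 4.66 CPM and Gsto1 108 ± 9.18 and 97.2 ± 13.9 CPM (SD, n = 4 per group; adjusted p = 0.848 and 0.356). The methionine sulfoxide reductases repair oxidised methionine in proteins. Msra measured 8.24, 9.02, 8.67 and 7.28 CPM in the scrambled and 13.3, 11.2, 9.30 and 18.0 CPM in the knockdown libraries. The groups did not overlap, and the knockdown mice stood in the order of their early granulocyte genes. The log2 fold change of 0.64 (SE 0.20) missed the threshold (adjusted p = 0.0596), and without knockdown replicate 3 it was 0.76 (adjusted p = 0.0170). The selenoprotein gene Msrb1 measured 31.0 ± 0.632 and 35.7 ± 5.88 CPM (SD, n = 4 per group; adjusted p = 0.236).

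**Figure D3:**
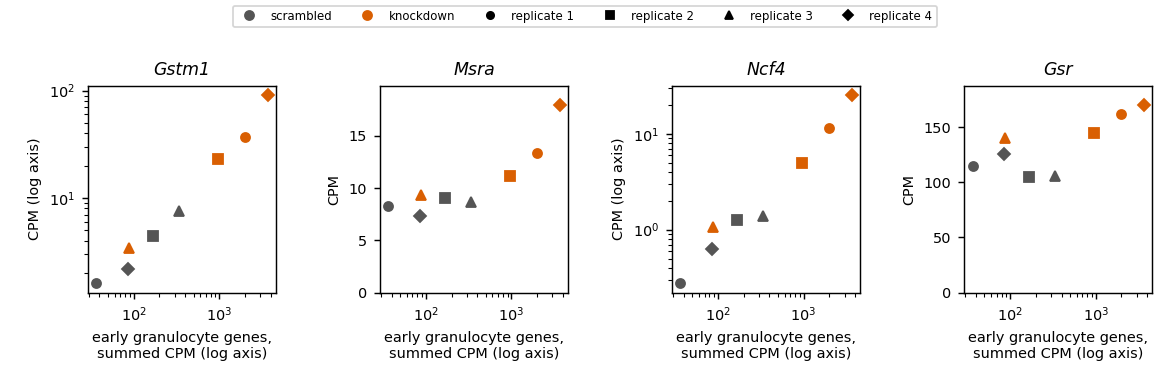
CPM of Gstm1, Msra, Ncf4 and Gsr (y axes, log scale for Gstm1 and Ncf4) against the summed CPM of early granulocyte genes (x axis, log scale) in the 8 libraries, with colour for the group and marker shape for the replicate. Gstm1 and Ncf4 rank all 8 libraries in the order of the granulocyte genes, and Msra and Gsr rank the 4 knockdown libraries so; 1 knockdown library, replicate 3 at 88.5 CPM, falls within the granulocyte range of the scrambled libraries.

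The order of the knockdown mice differed between the genes. In 6 of the 36 tested genes the 4 knockdown libraries stood in the order of their early granulocyte genes: Prdx5, Gsr, Glrx, Gstm1, Msra and Msrb1 (16.7%, beside 10.5% of all tested genes). In 9 they stood in the reverse order: Gpx4, Prdx3, Prdx4, Sod1, Sod2, Cat, Txn2, Txnip and Gss (25.0%, beside 9% of all tested genes). Prdx1, Srxn1, Txnrd1 and Gpx3 stood in neither. Knockdown replicate 3 was the highest of the knockdown libraries in 19 genes (52.8%, beside 33.2% of all tested genes) and the lowest in 9 (25.0%, beside 26.2%). These shares are a description without a test. The part of granulocyte precursors in these values was not tested.

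NRF2 and the genes around it had fitted changes above 0 in 5 of 5 cases, beside 6752 of all 13462 tested genes. None passed the test in edgeR with all libraries. At an unadjusted p under 0.05 there were 2, Sqstm1 and Hmox1, beside 4508 of all 13462 tested genes. DESeq2 called both, and limma-voom called Hmox1. Nfe2l2, which encodes NRF2, measured 160 ± 13.8 and 165 ± 12.2 CPM (SD, n = 4 per group; log2 fold change 0.04, adjusted p = 0.774). Keap1, its repressor, measured 85.7, 83.3, 85.0 and 79.8 CPM in the scrambled and 91.4, 87.0, 88.0 and 90.8 CPM in the knockdown libraries. These groups did not overlap, but the log2 fold change was 0.10 (SE 0.05, adjusted p = 0.210). Nqo1, a quinone reductase and classical NRF2 target, measured 29.3, 28.9, 27.0 and 18.2 CPM against 31.6, 31.5, 39.7 and 26.8 CPM, with overlap (log2 fold change 0.33, adjusted p = 0.213).

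Sqstm1 encodes p62, an autophagy receptor that can bind KEAP1. It measured 221, 173, 164 and 148 CPM in the scrambled and 255, 495, 491 and 186 CPM in the knockdown libraries. Knockdown replicates 2 and 3 stood far above all scrambled mice, and knockdown replicate 4 lay within their range. The log2 fold change of 1.01 (SE 0.32) missed the threshold (adjusted p = 0.0667); it passed without knockdown replicate 4 (1.22, adjusted p = 0.0274; 0.0218 to 0.198 over all settings). Summed genes of handling and immediate early response were also highest in knockdown replicates 2 and 3, at 5815 and 6348 CPM, against 3261 and 2323 CPM in knockdown replicates 1 and 4 and 2026 to 4403 CPM in the scrambled libraries. Not all genes of the list followed the sum. Hspa1b measured 4.95 and 12.5 CPM in knockdown replicates 2 and 3, and 24.1 and 26.7 CPM in replicates 1 and 4. Hspa1a was also lower in replicates 2 and 3 than in 1 and 4. Fos was highest in scrambled replicate 1, at 792 CPM. The part of the listed genes in the Sqstm1 values was not tested.

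Hmox1, the haem-degrading oxygenase that oxidants and haem induce, was a rare transcript. It measured 0.749, 0.616, 1.06 and 3.46 CPM in the scrambled and 4.96, 4.20, 3.55 and 2.76 CPM in the knockdown libraries. Scrambled replicate 4 stood apart from its group and above knockdown replicate 4. The log2 fold change of 1.41 (SE 0.53) did not pass (adjusted p = 0.101), and without scrambled replicate 4 it was 2.23 (adjusted p = 0.00901; 0.00901 to 0.206 over all settings).

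**Figure D4:**
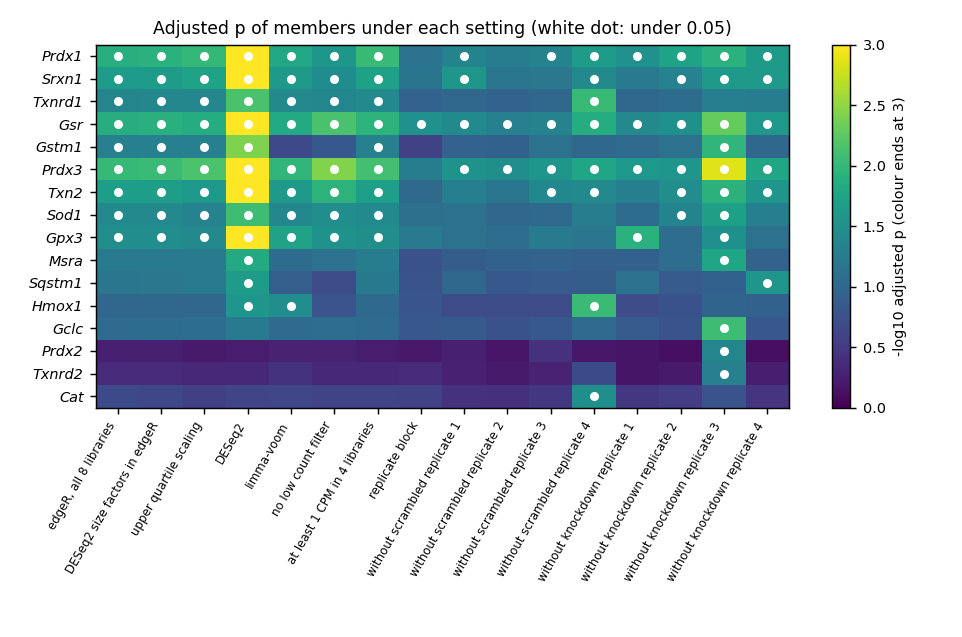
Adjusted p, as -log10 in colour, of 16 genes (rows) under each setting of the analysis (columns), with a white dot where it is under 0.05. Gsr and Prdx3 are called with each library left out, Prdx1 in all but 1 of those columns, and Txnrd1 and Gstm1 in 1 of them each.

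Levels of different genes can be compared only per length of transcript, here as CPM per kilobase of annotated exon in the scrambled libraries. Gpx1 was by far the highest of the 38 at 809, followed by Prdx3 at 284, Prdx2 at 281 and Txn1 at 258. Prdx6, Sod1, Glrx5, Txn2, Cat and Gclc came next, at 118, 102, 97.4, 78.7, 73.6 and 69.9 CPM per kilobase. Of the 9 called genes, Prdx3, Sod1 and Txn2, which fell, were among the most abundant by this measure. Prdx1, Txnrd1 and Gsr, which rose, had middling levels of 45.7, 41.6 and 40.8 by it. Srxn1 stood at 10.2, Gpx3 at 4.74 and Gstm1 at 2.68 CPM per kilobase. In the knockdown libraries Prdx3 stood at 207, and Prdx1, Gsr and Txnrd1 at 55.7, 56.0 and 55.5 CPM per kilobase. Hmox1, at 0.841, was the lowest of the tested genes.

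The genes that serve these enzymes were read from 8 related lists, with 104 of 119 genes tested, of which 14 rose and 7 fell (20.2%, beside 15.3% of all tested genes). Slc7a11, the cystine transporter that provides cysteine for glutathione, measured 3.27, 2.15, 3.22 and 1.89 CPM in the scrambled and 8.62, 7.20, 7.01 and 8.95 CPM in the knockdown libraries. All knockdown mice, replicate 3 included, lay above the highest scrambled value by more than its own size. Slc7a11 rose by 1.59 log2 units (SE 0.22, adjusted p = 0.00506). Slc25a39, which carries glutathione into mitochondria, stood at 135 ± 11 CPM and rose to 176 ± 7.24 CPM (SD, n = 4 per group; log2 fold change 0.38, adjusted p = 0.0117). The other 12 tested genes of cystine supply and glutathione turnover did not pass, and Slc3a2, the partner chain of SLC7A11, had a log2 fold change of 0.15 (adjusted p = 0.308).

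Of 13 tested partners and regulators of NRF2, 2 rose and 1 fell. Bach1, which competes with NRF2 at its binding sites as a haem-sensitive repressor, measured 48.0, 46.8, 42.5 and 49.8 CPM in the scrambled and 67.9, 62.9, 73.1 and 64.5 CPM in the knockdown libraries. The groups lay well apart, with knockdown replicate 3 the highest (log2 fold change 0.52, SE 0.07, adjusted p = 0.00527). Mafg, a small MAF partner of both, rose by 0.34 (adjusted p = 0.0493). Btrc, a ubiquitin ligase adaptor that can target NRF2, fell by 0.39 (adjusted p = 0.0357). Fbxw11 of the same list went the other way without overlap, from a mean of 73.9 to 89.6 CPM. Its log2 fold change of 0.28 missed the threshold (adjusted p = 0.0522). Mafg lost its call without any library but knockdown replicate 1, and Btrc without any but scrambled replicate 4 and knockdown replicate 3 (adjusted p up to 0.133 and 0.0915).

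Enzymes that supply NADPH included 3 that rose and 1 that fell among 14 tested. Idh1, the cytosolic isocitrate dehydrogenase, measured 14.4, 11.8, 13.1 and 9.44 CPM in the scrambled and 24.0, 21.1, 24.1 and 35.1 CPM in the knockdown libraries, with no overlap (log2 fold change 1.10, SE 0.18, adjusted p = 0.0103). Me1, malic enzyme, rose by 1.20 (adjusted p = 0.0294) and G6pdx, the first enzyme of the pentose phosphate pathway, by 0.22 (adjusted p = 0.0344). Mthfd1 of folate metabolism fell from 1145 ± 65.5 to 761 ± 155 CPM (SD, n = 4 per group; adjusted p = 0.0281). Idh1 passed whichever library was left out, and Me1, G6pdx and Mthfd1 each lost the call without scrambled replicate 2 or 3 or knockdown replicate 1. Mthfd1 lost it also without scrambled replicate 1, Me1 and G6pdx also without scrambled replicate 4 or knockdown replicate 2, and G6pdx also without knockdown replicate 4 (adjusted p up to 0.108).

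NADPH oxidase, which makes superoxide in phagocytes, had 4 genes higher and none lower of 6 tested, with a median log2 fold change of 3.03. Rac2, its small GTPase, measured 175, 118, 117 and 136 CPM in the scrambled and 243, 253, 249 and 315 CPM in the knockdown libraries, with no overlap (log2 fold change 0.96, SE 0.14, adjusted p = 0.00688). Ncf4 measured 0.278, 1.26, 1.40 and 0.629 CPM in the scrambled and 11.4, 4.99, 1.08 and 25.2 CPM in the knockdown libraries. There knockdown replicate 3 lay among the scrambled mice (log2 fold change 3.57, adjusted p = 0.0406). Cyba rose by 1.30 (adjusted p = 0.0463), while Cybb, the catalytic chain, and Ncf1 had log2 fold changes of 4.02 and 3.52 that missed the threshold (adjusted p = 0.0547 and 0.0599). Cybb, Ncf1 and Ncf4 ranked the knockdown mice as the early granulocyte genes did. Cyba and Ncf4 kept the call without knockdown replicate 3 and lost it without any 1 of the other 7 libraries (adjusted p up to 0.109), and Rac2 kept it throughout.

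Selenoproteins and their synthesis were tested because Gpx1, Gpx3, Gpx4, Txnrd1, Txnrd2, Txnrd3 and Msrb1 contain selenocysteine. Secisbp2, which binds the selenocysteine insertion element, fell by 0.29 (77.5 ± 3.91 to 63.3 ± 2.27 CPM; SD, n = 4 per group; adjusted p = 0.0168), the only one of 9 insertion factors to pass. Of 12 other selenoprotein genes, Selenoh, a nuclear selenoprotein, measured 109, 110, 106 and 109 CPM in the scrambled and 78.0, 84.7, 77.7 and 77.0 CPM in the knockdown libraries. It was level within each group and fell in every knockdown mouse (log2 fold change -0.45, SE 0.05, adjusted p = 0.00293). Selenom rose by 1.89 from 0.765 ± 0.199 CPM (adjusted p = 0.0274), with knockdown replicate 3 within the scrambled range at 0.888 CPM. That call held without knockdown replicate 3 and was lost without any 1 of the other 7 libraries (adjusted p up to 0.0797).

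Among 10 genes that act beside GPX4 in ferroptosis, 1 rose and 2 fell. Lpcat3, which builds polyunsaturated chains into phospholipids, fell from 148 ± 11.9 to 99.3 ± 7.55 CPM (adjusted p = 0.00503), and Slc40a1, the iron exporter ferroportin, from 163 ± 20.3 to 106 ± 12.1 CPM (SD, n = 4 per group; adjusted p = 0.0117). Ftl1, the ferritin light chain, rose by 0.40 (adjusted p = 0.0356) and lost the call without any 1 of the scrambled libraries or knockdown replicate 1 (adjusted p up to 0.102). Of 26 other tested members of the enzyme families, Nxn, a thioredoxin-like protein, rose by 1.01 (adjusted p = 0.0222) and Nqo2, a quinone reductase, fell by 0.42 (adjusted p = 0.0344). Nxn lost its call without scrambled replicates 1, 2 or 3 or knockdown replicate 2, and Nqo2 also without knockdown replicate 1 (adjusted p up to 0.0967). Over all 8 lists 9 of the 21 called genes passed whichever library was left out: Bach1, Slc7a11, Slc25a39, Idh1, Rac2, Secisbp2, Selenoh, Lpcat3 and Slc40a1. Without knockdown replicate 3, 24 of 106 tested genes of these lists were higher and 9 lower, 31.1% beside 24.7% of all genes.

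**Figure D5:**
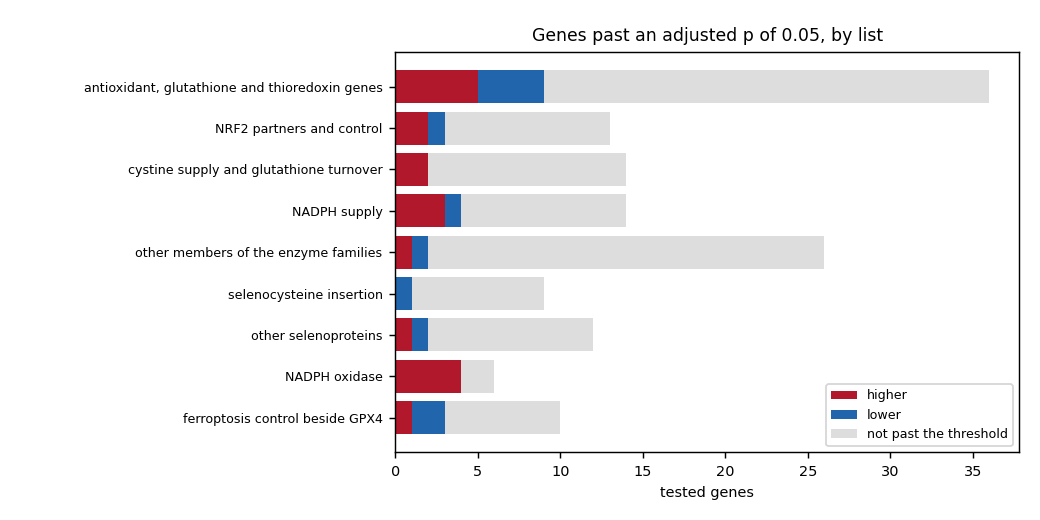
Number of tested genes (x axis) in each list (y axis), with the length in red for genes higher in the knockdown, blue for lower and grey for those not past an adjusted p of 0.05. The antioxidant genes divide into 5 higher, 4 lower and 27 others, while NADPH oxidase has 4 higher of 6.

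The authors' deposited table calls 12 of the 38 genes at an adjusted p under 0.05, 8 higher and 4 lower, beside 21.3% of all 15978 genes to which it gives an adjusted p. It gives none to Gpx7 and Gpx8. All 9 genes called here are called there in the same direction. The 3 others are Msra, Sqstm1 and Hmox1, with adjusted p of 0.0157, 0.0237 and 0.0293 in the authors' deposited table. Its log2 fold changes of Gpx3 and Gstm1, at -1.19 and 1.07, are the 2 of the 38 that pass the authors' filter of over 1 log2 unit. The edgeR values from the same counts were larger in size, at -1.51 and 3.27. The filter therefore does not apply alike to both sets of fold changes.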

How the data were processed

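RNA of sorted marrow cells was sequenced in 8 libraries, 4 per group. The authors deposited whole-number counts for each gene and library, without normalization. Per the submitters' processing notes CASAVA 1.8 and DESeq2 1.18.1 were used. No source used here gives the aligner, counting program, strand setting or genome build, so reads of overlapping, antisense and near-identical genes cannot be told apart. The authors' own log2 fold changes and adjusted p-values, deposited in that table, were kept apart and are printed only as theirs.

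Each column was tied to its sample through the number in the sample's description, and groups and replicate numbers come from the titles. Counts were tested in edgeR 4.0.16 (R 4.3.3): filterByExpr, TMM scaling, a robust quasi-likelihood fit with the group as the only term, a two-sided F test and Benjamini-Hochberg adjustment over all 13462 tested genes, with a threshold of 0.05. The procedure was tested on simulated data, where it called 121 of 200 changed genes, 0 with the wrong sign, and made 3 false calls among 13462 genes. It thus missed part of the changed genes there. CPM are scaled by library size and TMM factor (0.965 to 1.03). No library was a copy of another (chi-square per degree of freedom 10.7 to 88.9 within groups). Each library is 1 mouse. Coordinates and exon lengths are from GENCODE M21, GRCm38. Promoter windows are from RefSeq, GRCm38.p6.

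Alternatives were DESeq2 1.42.0, limma-voom (limma 3.58.1), other scalings and filters, a replicate block, and each library left out. The members and the related and marker lists were chosen with earlier results of these data known. All 38 members were accounted for, and related genes were named where called, except that some items are not reported here. The symbols Dpp3, Cybc1, Ahsp and Azu2 were not matched.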

Additional observations from a re-analysis of the deposited data

Results flagged for a closer look

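Dixon's test at the 95% level, run on each gene in each group of 4 libraries (76 groups; chance gives about 1 in 20), picked out 7 single libraries. Scrambled replicate 4 stood apart in 4 genes. Its Hmox1 level was 3.46 CPM against 0.616 to 1.06 in the other scrambled libraries, which touches the Hmox1 comparison given above. Its Prdx5 level was 49.8 CPM against 56.5 to 57.6, and its Gstp1 level 35.6 CPM against 47.4 to 48.2. Its Msrb1 level was 32.0 CPM against 30.6 to 30.8, a gap of small size in a tight group. Knockdown replicate 3 stood above its group in 2 genes, with 287 CPM of Txn1 against 269 to 270 and 404 CPM of Gclm against 335 to 346. Knockdown replicate 1 had 55.7 CPM of Glrx3 against 51.8 to 52.5. None of these 7 genes was called with all libraries by edgeR.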

How the results depend on the processing

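With DESeq2, 8 antioxidant genes were called higher, as were 25 related genes and 3588 genes in all, against 5, 14 and 2062 by edgeR. DESeq2 was run without the low count filter, on 26258 genes against 13462. Its share of 13.7%, beside 15.3%, is over all 26258 genes, including any that DESeq2 left without an adjusted p. The shares of DESeq2 and edgeR are therefore not directly comparable. The 3 added antioxidant genes were Msra, Sqstm1 and Hmox1. Related genes called higher numbered 9 with limma-voom and 9 with no low count filter. With the replicate block 1 antioxidant gene was higher, Gsr, and 0 lower by edgeR, beside 3 related genes higher, 3 lower and 400 genes in all. At an unadjusted p under 0.05 there were then 13 of 36 antioxidant genes, beside 3263 of all 13462. The labels do not say whether the replicate numbers pair the mice. Deviations of same-numbered libraries correlated at -0.42, 0.02, -0.56 and -0.22, and no library correlated best with its own number. Whether same-numbered mice shared a day or batch is not settled by these correlations, which other differences among the mice also enter. Leaving out each library in turn gave 1 to 5 antioxidant genes higher and 1 to 7 lower, 5 to 24 related genes higher and 4 to 9 lower, and 526 to 3425 genes in all, the highest without knockdown replicate 3 and the lowest without scrambled replicate 2. Fewer libraries also leave less to test with. The median of the antioxidant genes ran from -0.09 to 0.01 with a library left out. The other scalings and the filter at 1 CPM in 4 libraries kept 5 higher and 4 lower. Of the 27 tested genes not called, 20 were called in no setting. Gpx7 and Gpx8, with 26 and 9 reads in all, were too low to test at this depth. The cause of these shifts was not tested.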

Other observations

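Some related genes that missed the threshold had large or orderly values. Mgst1, a membrane-bound glutathione transferase, measured 0.0278, 0.246, 0.597 and 0.0899 CPM in the scrambled and 4.23, 1.49, 0.159 and 13.4 CPM in the knockdown libraries (log2 fold change 4.26, SE 1.30, adjusted p = 0.0617). Mgst2 measured 0.554 to 0.971 CPM in the scrambled and 4.35, 1.72, 0.730 and 7.44 CPM in the knockdown libraries (adjusted p = 0.0556). Gstm4 measured 2.92 to 3.66 CPM and 5.52, 5.75, 3.49 and 8.60 CPM (adjusted p = 0.0588). In each of these 3 transferase genes knockdown replicate 3 lay within the scrambled range and the other 3 knockdown libraries above it, as they did in Gstm1. These genes were chosen after their values were seen.

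Chac1, which degrades glutathione and is induced in the integrated stress response, measured 9.13, 3.91, 2.67 and 2.7 CPM in the scrambled and 3.18, 24.2, 28.7 and 6.36 CPM in the knockdown libraries (log2 fold change 1.76, adjusted p = 0.137). Its 2 highest libraries, knockdown replicates 2 and 3, are also the highest in Sqstm1. Pgd, of the pentose phosphate pathway, measured 191 to 206 CPM in the scrambled and 245, 232, 215 and 302 CPM in the knockdown libraries, with no overlap (log2 fold change 0.32, adjusted p = 0.0547). Gch1, which makes the antioxidant cofactor tetrahydrobiopterin, measured 1.75 to 5.79 CPM in the scrambled and 8.18, 7.30, 11.9 and 7.57 CPM in the knockdown libraries, also without overlap (adjusted p = 0.0641).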
